A study of Mus musculus with 4 samples.

Results

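The regions described here were marked by the PPP2CA antibody in 1 of its 2 CUT&Tag libraries and not in the other. Peaks of both PPP2CA lists were merged wherever they shared at least 1 bp, which gave 21771 regions. The members were chosen by peak calls: a merged region was taken when it held a peak of only 1 PPP2CA library and touched no peak of either IgG library. This left 9124 regions (41.9% of all merged regions), 4112 of them called in PPP2CA 1 alone and 5012 in PPP2CA 2 alone. A further 7 and 9 regions of a single PPP2CA library touched an IgG peak and were left out. The comparison set was the 12438 regions called in both PPP2CA libraries and in neither IgG library. Since calls rest on the signal, fold, −log10 p and −log10 q are given as a description without a test, while their position and the sequence beneath them were not used in the choice.

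The 4 libraries were made from bone marrow haematopoietic stem cells, all of mice whose Ppp2ca is wild type, and no treatment is named. In CUT&Tag an antibody tethers a transposase that cuts nearby DNA and inserts sequencing adapters, and IgG is the control antibody of no particular target. There were 2 libraries with the PPP2CA antibody and 2 with IgG, and the comparison addresses the places that PPP2CA occupies. Whether the 2 libraries with an antibody are from different mice is not stated, so what separates them may be technical.

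PPP2CA is the catalytic subunit of PP2A, a serine/threonine phosphatase of many complexes that acts on signalling kinases, on the cell cycle and on the transcription machinery. PP2A has no DNA-binding domain of its own, and it reaches chromatin through partners such as the Integrator complex, which works at paused RNA polymerase II near gene starts. Promoters in mammals are of 2 broad kinds, those rich in CpG dinucleotides, typical of widely used genes, and those poor in CpG, typical of genes used in few cell types.

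The promoters under the best-ranked one-library regions were of both kinds. The 3 best of each library by −log10 q that lay over an annotated protein-coding start are shown because the CpG content of the promoters is a feature in which the one-library regions differed from the others. Each is the 250 bases before the start site, 5′ to 3′ on the strand of the gene, from RefSeq (GRCm38.p6), with CpG dinucleotides in capitals. Gm6712 (chr17:17294193-17294442, plus strand), Arid3b (chr9:57836780-57837029, minus strand) and B3gat3 (chr19:8920143-8920392, plus strand) were marked in PPP2CA 1. Zdhhc12 (chr2:30093636-30093885, minus strand), Nudt16 (chr9:105131806-105132055, minus strand) and Casp4 (chr9:5308610-5308859, plus strand) were marked in PPP2CA 2.
Gm6712: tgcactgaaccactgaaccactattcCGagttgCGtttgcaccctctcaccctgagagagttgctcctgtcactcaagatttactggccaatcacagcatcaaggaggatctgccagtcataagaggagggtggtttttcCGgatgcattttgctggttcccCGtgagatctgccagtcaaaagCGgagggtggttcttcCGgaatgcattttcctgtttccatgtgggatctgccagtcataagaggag
Arid3b: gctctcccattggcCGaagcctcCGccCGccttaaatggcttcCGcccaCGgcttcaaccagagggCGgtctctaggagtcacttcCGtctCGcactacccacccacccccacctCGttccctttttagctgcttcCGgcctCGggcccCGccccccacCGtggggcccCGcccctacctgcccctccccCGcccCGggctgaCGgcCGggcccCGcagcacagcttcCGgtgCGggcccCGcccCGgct
B3gat3: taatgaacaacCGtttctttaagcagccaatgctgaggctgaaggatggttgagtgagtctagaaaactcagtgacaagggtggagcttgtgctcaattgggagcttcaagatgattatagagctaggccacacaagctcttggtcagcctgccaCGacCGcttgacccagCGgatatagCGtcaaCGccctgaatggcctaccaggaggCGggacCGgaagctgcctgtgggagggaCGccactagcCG
Zdhhc12: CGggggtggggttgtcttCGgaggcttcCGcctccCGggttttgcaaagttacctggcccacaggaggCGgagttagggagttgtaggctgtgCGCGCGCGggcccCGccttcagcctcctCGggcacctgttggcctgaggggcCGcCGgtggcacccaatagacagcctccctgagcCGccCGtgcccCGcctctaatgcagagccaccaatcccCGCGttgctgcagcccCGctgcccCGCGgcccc
Nudt16: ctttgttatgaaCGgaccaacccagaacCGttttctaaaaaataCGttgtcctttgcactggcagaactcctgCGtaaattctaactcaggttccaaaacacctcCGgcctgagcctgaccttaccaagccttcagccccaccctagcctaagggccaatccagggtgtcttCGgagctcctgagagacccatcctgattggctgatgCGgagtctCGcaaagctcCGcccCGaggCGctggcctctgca
Casp4: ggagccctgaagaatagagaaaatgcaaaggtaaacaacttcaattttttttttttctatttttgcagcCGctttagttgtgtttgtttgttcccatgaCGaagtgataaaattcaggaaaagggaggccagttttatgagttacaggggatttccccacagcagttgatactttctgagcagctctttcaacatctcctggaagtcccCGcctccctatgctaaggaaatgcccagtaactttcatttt
The number of CpG dinucleotides in these 250 bases was 6 for Gm6712, 23 for Arid3b, 10 for B3gat3, 21 for Zdhhc12, 11 for Nudt16 and 3 for Casp4. Arid3b, which encodes an AT-rich DNA-binding transcription factor, and Zdhhc12, a palmitoyltransferase gene, had CpG-dense promoters with 72.8% and 70.4% G and C. The promoter of Casp4, an inflammatory caspase gene, had 40.8%. The peak summits lay 16 bp from the start of Casp4 and 100 to 235 bp from the starts of the other 5 genes.

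One-library regions were low and narrow compared with regions called in both. The height of a peak is given as the fragments at its summit, worked out from its fold and −log10 p in the deposited lists. The median summit of a one-library region held 9 fragments in PPP2CA 1 (quartiles 7 and 12) and 9 in PPP2CA 2 (7 and 12). In regions called in both, the medians were 23 and 25 fragments. The median fold over the local background, the authors' own value, was 4.25 in PPP2CA 1 and 4.26 in PPP2CA 2, against 6.29 and 6.26 for regions called in both. The median −log10 p was 5.78 and 5.89, against 14.2 and 14.97. The median −log10 q was 3.21 and 3.34, against 11.2 and 11.97. One-library regions had a median width of 416 and 449 bp, against 774 and 818 bp. The medians of fold, −log10 p and −log10 q of the 2 sets of one-library regions thus lay close to each other, and below those of the regions called in both.

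Most one-library regions lay near the floor of what was called. The lowest summit of any called PPP2CA peak held 5 fragments in each library, and 2317 of the 4112 regions of PPP2CA 1 (56.3%, 95% exact interval 54.8 to 57.9) and 2694 of the 5012 of PPP2CA 2 (53.8%, 52.4 to 55.1) had summits under 10. In regions called in both, 7.44% and 5.93% of the peaks did. A −log10 q under 3 was found for 39.9% and 38.4% of the one-library regions, against 4.53% and 3.54%. The lists hold no value for a place without a peak, so the signal at a one-library region in the other library is not known and need not be absent. The IgG libraries were shallow, with a median summit of 4 fragments, and IgG signal too low to be called may be present at any of these regions. In a bulk library, binding in fewer cells and less binding per cell cannot be told apart.

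The share of a library's peaks that had no partner fell steeply with height. Members made up 24.5% of all PPP2CA 1 peaks (23.8 to 25.1) and 28.3% of all PPP2CA 2 peaks (27.7 to 29.01). Among peaks without an IgG overlap they were 71.4% and 78.5% of those with fewer than 10 summit fragments, 35.4% and 42.9% at 10 to 14, 15.6% and 21.9% at 15 to 19, and 6.14% and 8.36% at 20 to 29. At 30 or more fragments they were 0.991% (48 peaks) and 1.08% (58 peaks). The libraries themselves were close in depth. Each had a median summit of 18 fragments, and the genome-wide background was 0.784 and 0.8004 fragments. PPP2CA 2 was the somewhat higher of the 2. At 6794 shared summits, no more than 100 bp apart, its ratio to PPP2CA 1 was 1.087. Peaks of 100 or more fragments numbered 904 in PPP2CA 1 and 1050 in PPP2CA 2.

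**Figure D1:**
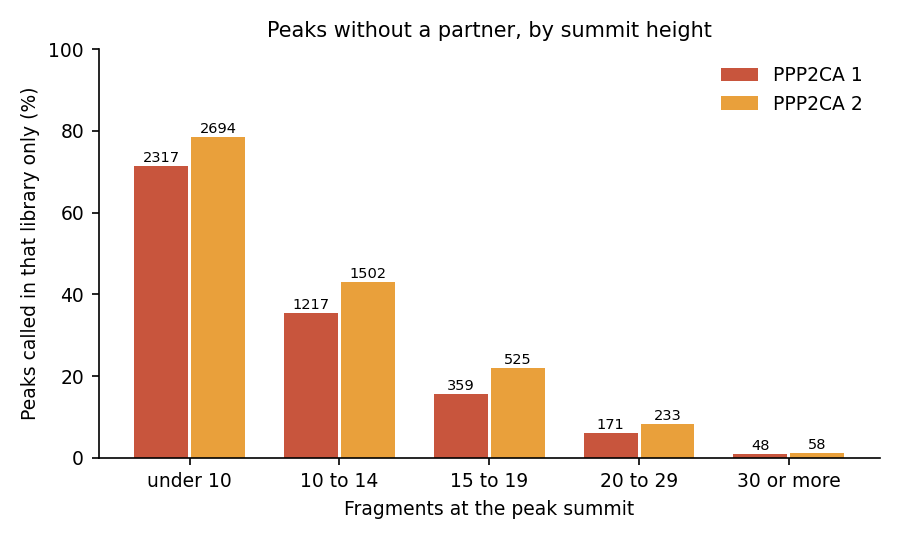
Share of the peaks of each PPP2CA library that were called in that library only (vertical axis, %), by the number of fragments at the summit (horizontal axis), among peaks outside regions with an IgG peak. Numbers above the bars are peaks. The share falls from 71.4% and 78.5% under 10 fragments to 0.991% and 1.08% at 30 or more.

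The overlap rule cut through a small number of places. The smallest gap was 2 bp, at Usp39 on chromosome 6, a deubiquitinase-family splicing gene, where the PPP2CA 2 peak at chr6:72344884-72345290 (fold 2.74, 15 fragments) was followed by the PPP2CA 1 peak at chr6:72345293-72345674 (fold 2.81, 15 fragments). The next was 3 bp, on chromosome 11 near Vps54 (chr11:21236839-21237224, 11 fragments in PPP2CA 2, and 12 fragments in the PPP2CA 1 peak beside it). Just on the other side of the rule were 3 regions with an overlap of 2 bp, near Gstt2 (17 and 13 fragments), Mgrn1 (8 and 9) and Galnt1 (7 and 8). In all, 103 members had a peak of the other library less than 100 bp away, and 103 regions of 1 peak per library had an overlap under 100 bp, of 12346.

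Most one-library regions lay far from any peak of the other library. The median gap was 17138 bp for PPP2CA 1 (quartiles 7240 and 46098) and 19676 bp for PPP2CA 2 (8229 and 52533). Only 159 of 4112 (3.87%, 3.30 to 4.50) and 143 of 5012 (2.85%, 2.41 to 3.35) had one within 500 bp. In 119 and 121 of those cases the neighbour was itself a one-library region, so that the libraries marked adjoining stretches without a shared base. A region called in both libraries lay within 1 kb of 2.26% (1.83 to 2.76) and 1.34% (1.04 to 1.70) of the members.

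**Figure D2:**
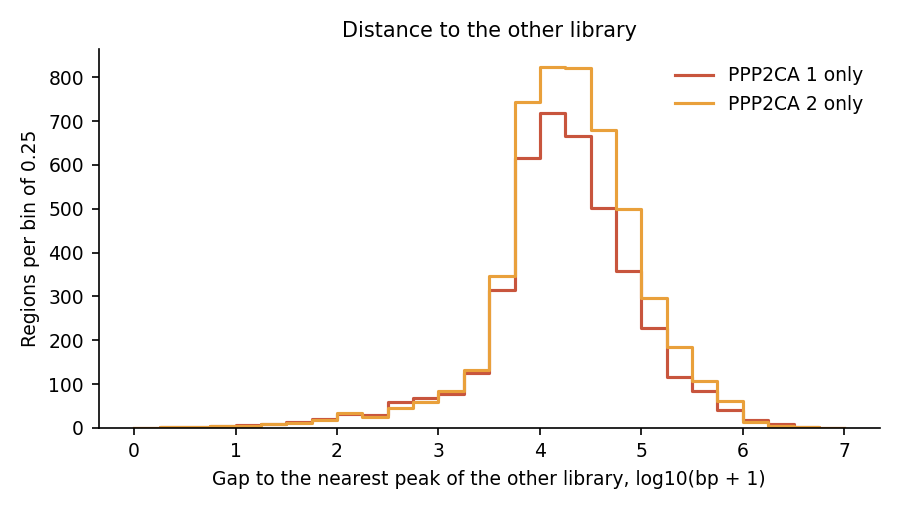
Number of one-library regions (vertical axis) by the gap to the nearest peak of the other PPP2CA library, as log10 of bp plus 1 (horizontal axis, bins of 0.25). Both libraries peak around the median gaps of 17138 and 19676 bp, with a thin tail under 1 kb.

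One-library regions were found at gene boundaries less often than regions called in both. Within 1 kb of the start or end of a protein-coding gene lay 907 of the 4112 PPP2CA 1 regions (22.1%, 20.8 to 23.4) and 1049 of the 5012 PPP2CA 2 regions (20.9%, 19.8 to 22.1). The share was 60.4% (59.5 to 61.2) in regions called in both and 43.9% over all regions without an IgG peak. Such windows cover 2.90% of the bases of the chromosomes. The intervals of the one-library sets overlap each other and lie far below that of the regions called in both. They cover counting error only, and regions of 1 library are not replicates of a condition.

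The share at gene starts differed in the same way. With start sites and strand from the RefSeq promoter table, 16.9% (15.7 to 18.03) of the PPP2CA 1 and 15.3% (14.3 to 16.3) of the PPP2CA 2 regions were within 1 kb of a protein-coding start, against 53.3% (52.4 to 54.1) of regions called in both and 37.5% of all regions without an IgG peak. Gene ends with no start nearby were at 2.97% (2.47 to 3.53) and 3.13% (2.67 to 3.65) against 1.88% (1.65 to 2.14). Regions at a start cannot enter this count, and more of the regions called in both were at a start. The end shares are therefore not a comparison of their own. The table held a start for 17492 of the 21779 protein-coding genes (80.3%). Inside protein-coding genes and away from their boundaries lay 40.5% and 40.3% of the one-library regions, against 17.3%. Outside genes and boundaries lay 34.2% and 35.7%, against 16.6%. More than 10 kb from every boundary were 1971 of 4112 (47.9%, 46.4 to 49.5) and 2506 of 5012 (48.6 to 51.4), against 21.6% (20.9 to 22.3), and the median distance to a boundary was 9332 and 10010 bp, against 0.

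The difference in position was also present among peaks of like summit height in their own library. Among PPP2CA 1 peaks with fewer than 10 summit fragments, 16.8% (15.3 to 18.4) of the one-library peaks and 35.9% (32.8 to 39.1) of the peaks in regions called in both were at a boundary. At 10 to 14 fragments the shares were 27.5% (25.03 to 30.1) and 44.7% (42.7 to 46.8), and at 20 to 29 they were 33.9% (26.9 to 41.5) and 61.1% (59.2 to 63.0). In PPP2CA 2 the shares under 10 fragments were 15.3% (13.95 to 16.7) and 35.9% (32.5 to 39.5), and at 20 to 29 they were 30.9% (25.03 to 37.3) and 60.0% (58.1 to 62.0). The intervals were apart in each of the 5 height ranges of both libraries. Height is matched within 1 library only, and peaks in regions called in both had also to be called in the other. Their median fold was higher at like height. In PPP2CA 1 it was 4.4 against 3.94 under 10 fragments and 6.59 against 3.94 at 20 to 29. In PPP2CA 2 it was 4.41 against 3.95 and 6.35 against 4.23. The part of signal strength in the difference of position was not tested. One-library peaks were also narrower at like height, and a wide region reaches a window more easily. In PPP2CA 1 the median widths were 395 and 455 bp under 10 fragments, 488 and 778 bp at 20 to 29, and 405 and 1024 bp at 30 or more. In PPP2CA 2 they were 420 and 472 bp, 533 and 791 bp, and 574 and 1043 bp. With the position of the summit in place of the whole region the shares under 10 fragments were 15.7% (14.3 to 17.3) and 34.3% (31.3 to 37.5) in PPP2CA 1, and 13.9% (12.6 to 15.2) and 34.3% (30.9 to 37.9) in PPP2CA 2. At 20 to 29 fragments they were 31.0% (24.2 to 38.5) and 57.8% (55.9 to 59.7) in PPP2CA 1, and 27.5% (21.8 to 33.7) and 57.0% (55.04 to 58.9) in PPP2CA 2. At 30 or more they were 20.8% (10.5 to 35.0) and 70.4% (69.1 to 71.7) in PPP2CA 1, and 24.1% (13.9 to 37.2) and 69.5% (68.2 to 70.7) in PPP2CA 2.

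**Figure D3:**
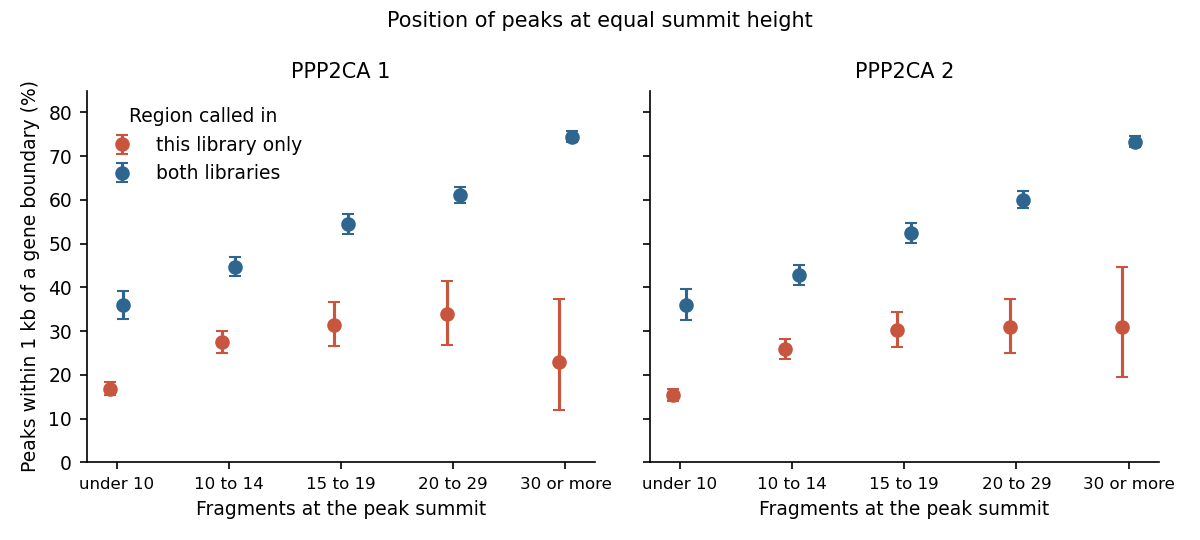
Share of peaks within 1 kb of a protein-coding gene boundary (vertical axis, %) by summit fragments (horizontal axis) in each PPP2CA library, for regions called in that library only and in both. Bars are 95% exact intervals. The share rises with height for regions called in both, from 35.9% to 74.4% in PPP2CA 1. One-library peaks lie lower at each height. Their share rises from 15.3% to 31.0% in PPP2CA 2. In PPP2CA 1 it rises from 16.8% to 33.9% at 20 to 29 fragments and is 22.9% at 30 or more.

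The tallest one-library regions mostly differed from the low ones, standing on high local background close to a region called in both. The local background is the level around a peak, in fragments, on which its fold is based. Of the 48 PPP2CA 1 regions with 30 or more fragments, 45 stood on a background of 5 fragments or more, with folds of 1.73 to 5.05. Of the 58 in PPP2CA 2, 52 did, with folds of 1.49 to 12.3. A region called in both libraries, with or without an IgG peak, lay within 5 kb of 79.2% (65.0 to 89.5) of these tall regions in PPP2CA 1 and 62.1% (48.4 to 74.5) in PPP2CA 2. Of the regions under 10 fragments, 1.68% (1.20 to 2.29) and 1.04% (0.692 to 1.499) did. The same nearness was not counted for tall peaks in regions called in both. Their background was also high, though lower than that of the tall one-library regions. At 30 or more fragments the median background in PPP2CA 1 was 13.02 fragments for one-library regions and 5.771 for peaks in regions called in both. In PPP2CA 2 it was 10.44 and 6.131. The median fold of one-library regions in PPP2CA 1 was 3.94 under 10 fragments, 4.81 at 15 to 19 and 2.78 at 30 or more. In PPP2CA 2 it was 3.95, 4.70 and 3.36. Examples picked after their values were seen are a region inside Eif5a, a translation factor gene, with 87 fragments and a fold of 2.17 in PPP2CA 1, and a region at the AP-1 gene Jun, with 199 fragments on a background of 133 and a fold of 1.49 in PPP2CA 2. The nearest peak of the other library was 577 bp away at Eif5a (425 fragments) and 1847 bp away at Jun (819 fragments). Both of these neighbours lay in regions that touched an IgG peak. The nearest region called in both without an IgG peak was 5160 bp away at Eif5a and 26252 bp away at Jun.

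A single region stood apart from all other members by its −log10 q. It lay on chromosome 13 inside Tmem267, a transmembrane protein gene at 119488086 to 119610459, and was called in PPP2CA 2 alone (chr13:119598258-119599170, 913 bp). Its summit held 219 fragments on a background of 17.0, with a fold of 12.3 and a −log10 q of 154, rank 172 of 17686. No other member of PPP2CA 2 was among the 1000 best of its list, and none of PPP2CA 1 was. The nearest PPP2CA 1 peak was 17565 bp away and held 9 fragments. A second PPP2CA 2 region lay close by (chr13:119601896-119602214, 40 fragments, fold 2.49). Other peaks of the neighbourhood recurred: at chr13:119690081-119690939 PPP2CA 1 held 60 fragments, and the overlapping PPP2CA 2 peak held 67. The exons of Tmem267 were not used here.

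Away from that place, the best regions far from gene boundaries were much lower. In PPP2CA 1 they were on chromosome 16 inside the lncRNA gene Gm4827 (chr16:50030568-50031172, 30 fragments, fold 10.4), on chromosome 3 with Nbea the nearest gene, 391699 bp away (chr3:56575448-56575747, 27 fragments, fold 10.5), inside Itsn1, an endocytic scaffold gene (chr16:91746485-91747323, 27 fragments, fold 9.41), and 14862 bp from Slc4a1ap (chr5:31576618-31577007, 27 fragments, fold 8.70). In PPP2CA 2 they followed the Tmem267 region on the Y chromosome (chrY:12752211-12752883, 24 fragments, fold 13.4), on chromosome 11 (chr11:121982053-121982527, 24 fragments, fold 12.5) and 34918 bp from Rfx8 (chr1:39755908-39756763, 33 fragments, fold 9.02). The Y chromosome region had no peak of PPP2CA 1 within 893909 bp, and the region near Nbea had none of PPP2CA 2 within 999845 bp.

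At gene boundaries, the best-ranked one-library regions of PPP2CA 1 lay at genes of varied function. First by −log10 q was Gm6712, a gene model of chromosome 17 (fold 10.7, 22 fragments). Arid3b followed (7.92, 27), then B3gat3, whose enzyme builds the linker of proteoglycan sugar chains (7.69, 27). The histone H3 lysine methyltransferase gene Dot1l had 60 fragments at a fold of only 3.59, on a background of 16.0 and 2091 bp from a PPP2CA 2 peak. Next were Cacng2, which encodes the AMPA receptor partner stargazin (8.06, 22), the high-coordinate boundary of the DNA repair gene Rad50 (8.73, 19), Prpf8, the core protein of the spliceosome (7.32, 24), and Ppp1r12b, a regulatory subunit of myosin phosphatase (8.34, 20). Their ranks were 4070 to 5529 of 16811.

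Those of PPP2CA 2 were of similar height. Commd10 (fold 11.3, 23 fragments) ranked first, followed by Zdhhc12 (6.54, 36), the nudix hydrolase gene Nudt16 (9.55, 22) and Zbtb8os (9.90, 20). The Hsp70-family chaperone gene Hspa4 had 36 fragments at a fold of 6.04, and Casp4 had 21 at 9.45. The last of the 8 were Dym, a Golgi protein gene (6.63, 29), and Klhl6, a BTB-kelch gene of lymphoid cells (6.59, 29). At Casp4 the nearest PPP2CA 1 peak was 998263 bp away, while at Dym it was 2322 bp away.

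At the level of genes, 1743 of 21779 protein-coding genes (8.0%) had a one-library region within 1 kb of a boundary and no region called in both there. Of these, 769 had a region of PPP2CA 1, 910 a region of PPP2CA 2 and 64 a region of each at separate places. A further 310 genes had a one-library region beside a region called in both. For comparison, 8609 genes (39.5%) had a region called in both, so one-library regions were the sole mark of 16.8% of all marked genes. Over the 1743 genes the median of the best one-library region was a fold of 4.48 and 10 fragments.

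Of the PP2A genes, 1 of 26 had only a one-library region, and 18 had a region called in both. It was Ppp2r3d, a gene of the PR72 family of regulatory subunits, at its start (chr9:124476026-124476872, fold 4.58 and 9 fragments in PPP2CA 1). The share of 3.85% (0.0973 to 19.6) stands beside 8.0% of all genes. Ppp2ca itself was marked at its start in both libraries, with 138 and 164 fragments. Beyond its other end, at 6109 and 7459 bp, lay one-library regions of PPP2CA 2 (chr11:52128859-52129421, 20 fragments, fold 3.63, and chr11:52130209-52130633, 18 fragments, fold 3.45), picked after their values were seen.

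The lists of blood cell genes held 1 to 6 one-library genes each. Their shares stand beside 8.0% of all genes and 16.8% of all marked genes. Among 34 stem cell regulators and markers 6 had a one-library region only (17.6%, 6.76 to 34.5, and 26.1% of the marked genes of the list) and 17 had one called in both. They were Hlf, a transcription factor gene active in blood stem cells (14 fragments, fold 4.56), Gata2, a master regulator of blood stem cells (19, 3.18), Hoxb4 and Esam in PPP2CA 2, and Procr and Zbtb16 in PPP2CA 1. Their median fold was 3.45 and their median summit 10.5 fragments, beside 4.48 and 10 over all such genes. Among 22 myeloid genes 6 were of this kind (27.3%, 10.7 to 50.2, and 46.2% of the marked genes of the list) and 7 were called in both. Their median fold was 4.38 and their median summit 11 fragments. The neutrophil alarmin gene S100a8 (12 fragments, fold 5.53) and Irf8, a transcription factor of monocytes and dendritic cells (14, 4.43), led in PPP2CA 1, with Ctsg. Ltf, Csf3r and Cebpe were marked in PPP2CA 2.

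Of 20 stromal and endothelial markers 4 had a one-library region, all in PPP2CA 1 (95% interval 5.73 to 43.7%), and 3 had one called in both, so that one-library genes were 57.1% of 7 marked genes. They were the endothelial adhesion gene Pecam1 (12 fragments, fold 4.68), the endothelial TGF-beta co-receptor gene Eng (10, 4.07), Col1a2 and Nes. The erythroid and megakaryocyte list held 2 of 21, the platelet glycoprotein genes Gp9 (17 fragments, fold 4.90, PPP2CA 2) and Gp1ba (13, 4.41, PPP2CA 1), beside 7 called in both, with a median fold of 4.66 and a median summit of 15 fragments. Of 25 lymphoid markers 1 had a one-library region, the B cell receptor gene Cd79b (7 fragments, fold 3.24, PPP2CA 1), and 2 had one called in both. The part of other cell types in these calls was not tested.

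In 3 of the 4 signalling lists nearly all marked genes were marked in both libraries, while the Wnt list held 5 one-library genes. Over all genes, one-library regions alone marked 8.0%, which is 16.8% of the marked genes. The PI3K, AKT, mTOR and FOXO list had 26 of 29 genes called in both and 0 with a one-library region alone. The NF-kappaB list had 22 of 24 and 1, Tnip1, an inhibitor of the pathway (17 fragments, fold 4.10, PPP2CA 2). The MAPK list had 30 of 35 and 2, the p38-family kinase gene Mapk13 (17, 5.84, PPP2CA 2) and the kinase gene Map3k1 (10, 5.67, PPP2CA 1). Wnt and beta-catenin genes had 17 of 35 called in both and 5 in a single library (14.3%, 4.81 to 30.3, and 22.7% of its marked genes). The interval includes the share over all genes. The 5 Wnt genes were the receptor genes Fzd2 (16 fragments, fold 6.44, PPP2CA 1), Fzd3 and Fzd8, the transcription factor gene Tcf7l2 (15, 4.97, PPP2CA 1) and the ligand gene Wnt10b.

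Of 37 cell cycle genes, the longest of the 14 lists, 8 had a one-library region only (21.6%, 9.83 to 38.2, beside 8.0% of all genes), and 24 had one called in both. The one-library genes were 25% of the marked genes of the list, beside 16.8% of all marked genes. The 8 genes included 4 inhibitors of cyclin-dependent kinases, Cdkn1a, Cdkn2a and Cdkn2b in PPP2CA 1 and Cdkn1c in PPP2CA 2. The mitotic kinase gene Aurkb had the highest −log10 q (28 fragments, fold 4.01, PPP2CA 1), then the mitotic cyclin gene Ccnb2 (10, 5.75, PPP2CA 2), and Plk1 and E2f4 completed the set. The p53 and DNA damage list had 3 of 31, Rad50, Fancd2 (9 fragments, fold 4.51, PPP2CA 2) and Brca2, and 25 called in both. DNA replication had 2 of 34, Gins3 (10, 6.11) and Mcm10 (11, 5.83), both in PPP2CA 2, and 26 called in both. Complex I of the respiratory chain had 3 of 35, Ndufb4 (18, 7.78, PPP2CA 2), Ndufa1 (11, 6.73, PPP2CA 1) and Ndufa5, and 27 called in both.

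Families with many genes were counted by name. Of 1109 olfactory receptor genes, which are mostly silent outside the nose, 4 had a one-library region (0.361%, 0.0984 to 0.921) and 0 had a region called in both. These were Olfr433, Olfr70, Olfr316 and Olfr222. Of 400 zinc finger genes with Zfp names, 47 had only a one-library region (11.8%, 8.76 to 15.3, and 20.35% of the marked genes of the family) and 184 had one called in both. Over all protein-coding genes these shares were 8.0%, and 16.8% of the marked genes.

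**Figure D4:**
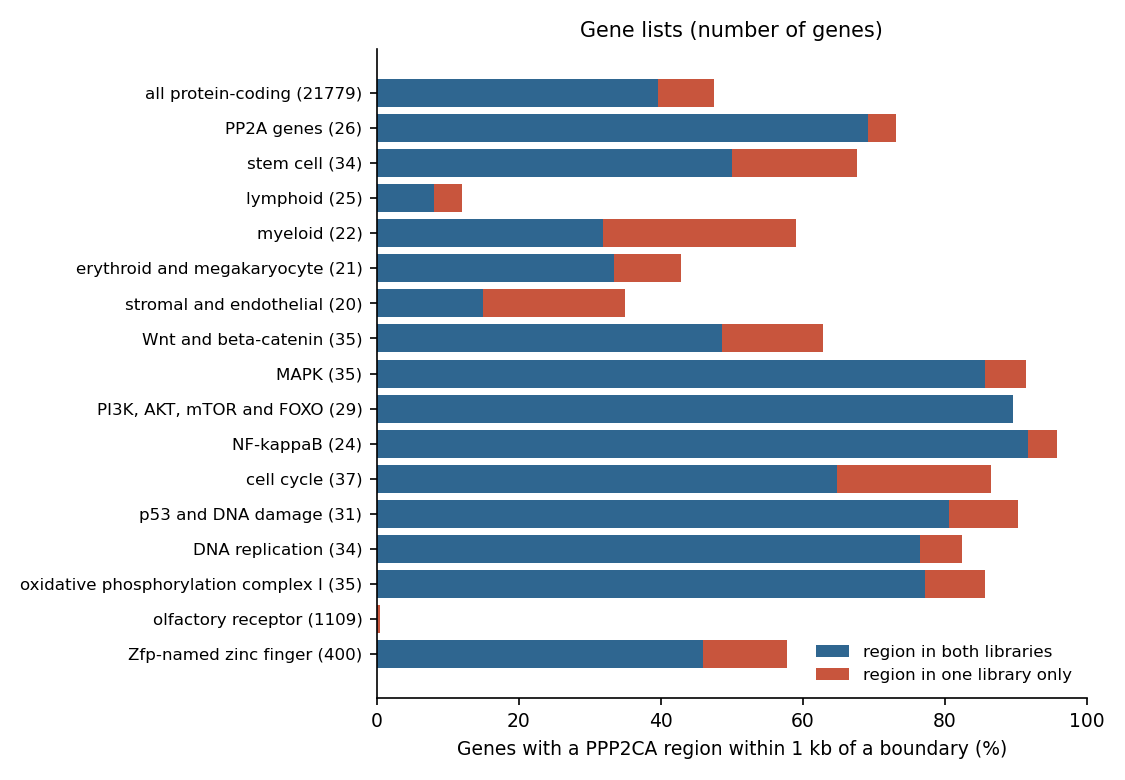
Share of genes (horizontal axis, %) with a PPP2CA region within 1 kb of a boundary, split into genes with a region called in both libraries and genes with a one-library region only, for all protein-coding genes and each list (number of genes in brackets). One-library regions alone mark 8.0% of all genes, 27.3% of the myeloid list and 0.361% of the olfactory receptors.

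The promoters under one-library regions were CpG-richer than unmarked promoters and CpG-poorer than those marked in both libraries. Of 21263 protein-coding promoters, each from 250 bases before to 50 after a start, 546 lay under a PPP2CA 1 and 618 under a PPP2CA 2 one-library region and no region called in both (5.47% in all), 8146 under a region called in both and 11787 under none. The rest lay under regions with an IgG peak. The ratio of observed to expected CpG had a median of 0.685 and 0.687 in the one-library promoters, 0.819 in those marked in both and 0.269 in the unmarked. A ratio of 0.6 or more was found in 63.0% (58.8 to 67.1) and 62.5% (58.5 to 66.3) of the one-library promoters, 84.0% (83.2 to 84.8) of those marked in both and 20.5% (19.8 to 21.2) of the unmarked. With only peaks under 15 fragments, the shares were 59.7% (54.9 to 64.4), 62.1% (57.5 to 66.5) and 73.1% (69.7 to 76.3) for PPP2CA 1, PPP2CA 2 and both. The G and C content differed less, with medians of 61.0% and 60.7% in the one-library promoters, 62.7% in those marked in both and 50.3% in the unmarked.

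**Figure D5:**
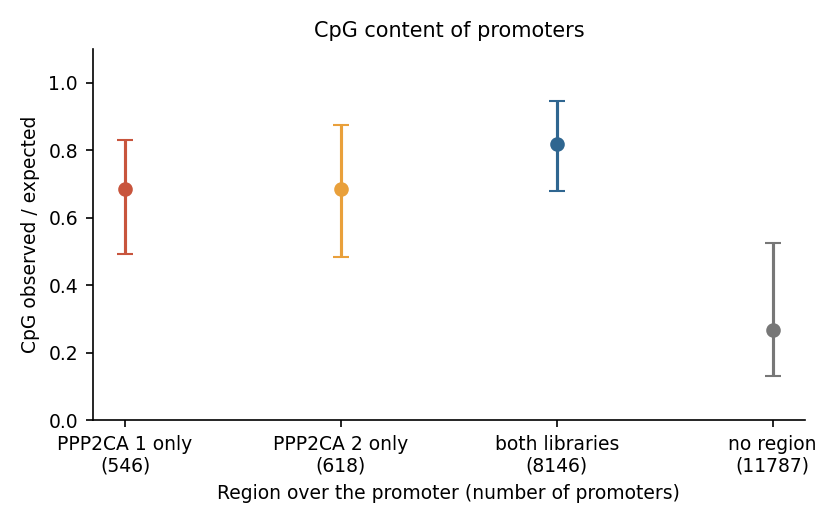
Ratio of observed to expected CpG (vertical axis) in protein-coding promoters by the kind of PPP2CA region over them (number of promoters in brackets). Points are medians and bars run from the lower to the upper quartile. One-library promoters (0.685 and 0.687) lie between those marked in both libraries (0.819) and those with no region (0.269).

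Short promoter motifs were searched by exact letters on both strands of the same 300 bases. The GC box GGGCGG was in 61.2% and 62.9% of the one-library promoters, 72.2% of those marked in both, 26.4% of the unmarked and 46.2% of all. The ETS core CCGGAAG was in 14.3% and 11.97%, against 22.0%, 4.13% and 11.6% of those marked in both, unmarked and all. The NRF1-like motif was in 6.78% and 8.25%, against 12.7%, 1.78% and 6.38%. These 3 motifs were thus less frequent than in promoters marked in both and more frequent than in the unmarked. The CRE TGACGTCA, which also holds CpG, was in 4.21% (2.69 to 6.25) and 1.78% (0.892 to 3.16), against 4.002%, 0.933% and 2.23%. The TATA box TATAAA was in 7.33% (5.29 to 9.84) and 6.63% (4.80 to 8.89), against 5.25% of those marked in both, 18.3% of the unmarked and 12.6% of all. The GATA motif AGATAA was in 4.76% and 7.77%, against 4.74%, 13.5% and 9.65%, and the AP-1 motif TGANTCA in 6.78% and 5.34%, against 3.77%, 9.37% and 6.99%. The YY1-like motif AAGATGGCG was in 2.38% and 2.59%, against 3.83%, 0.390% and 1.83%. The RUNX motif TGTGGT was in 14.1% and 12.9%, against 11.6%, 17.6% and 14.97%. The CCAAT box did not lie between in either library, with 35.7% (31.7 to 39.9) and 31.6% (27.9 to 35.4), against 39.2% of those marked in both, 37.8% of the unmarked and 38.2% of all. Nor did the CRE in PPP2CA 1, though its interval includes the share of promoters marked in both. A match is a run of letters and not a bound site.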

How the data were processed

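CUT&Tag libraries of mouse haematopoietic stem cells, 2 with a PPP2CA antibody and 2 with IgG, were grouped by their titles. The authors deposited 1 peak list per library, with 16811 and 17686 peaks for PPP2CA and 561 and 310 for IgG. Per the submitters' processing notes, the tools were MACS2, BWA, Trimmomatic, HOMER, ChIPseeker and deepTools and the build GRCm38 or mm10; their roles, settings and any control used in calling are not given in the sources used here. For every peak the authors deposited a fold, a ratio of summit to local background, beside −log10 p and −log10 q. The deposited score equals 10 times the −log10 q cut to a whole number for at least 99.99% of the peaks.

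Summit fragments and background were solved from the fold, read as (fragments + 1) / (background + 1), together with the −log10 p, read as that of a Poisson upper tail. The solution gave whole fragments for 100% of the peaks of each list, within a relative error of 0.0001 in −log10 p, and gave back 100% of 4000 simulated summits. Read totals are not given in the sources used here, and the summit fragments stand for depth. Peaks sharing at least 1 bp were merged. Boundaries were the starts and ends of 21779 protein-coding genes of a RefSeq table (GRCm38.p6), with entries below 3 Mb left out except on Y, and windows of 1 kb. Several peaks of a library can share a region called in both, so shares by height count peaks. Observed over expected CpG is CpG count times length over the product of C and G counts. Intervals are exact Clopper-Pearson intervals at 95%. No p-value was computed, since the members were chosen by the calls and regions are not replicates. Python 3.11.15, numpy 2.4.6, pandas 2.3.3 and scipy 1.17.1 were used.

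Named were the 8 best members of each library at a boundary, the 4 best more than 10 kb away, the PP2A genes, the 2 best of each list and the 3 places on each side of the overlap rule; a gene named besides these was chosen after its values were seen. The members and the 14 gene lists were chosen with earlier results of these data known.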

Additional observations from a re-analysis of the deposited data

How the results depend on the processing

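Of 59 values recomputed under alternatives, 35 stayed within the interval of the main value, or within 1.5 times a main count, and 24 did not. In each alternative the share of one-library regions at a gene boundary stayed below that of regions called in both. The cut of 20 or more fragments was applied to one-library regions only, which were set there against regions called in both of every height (60.4%). The main shares were 22.1% for PPP2CA 1 and 20.9% for PPP2CA 2. They became 27.6% and 25.9% with a reciprocal overlap of 50%, 26.9% and 25.3% with peaks of −log10 q of 3 or more, 35.7% and 34.6% with −log10 q of 5 or more, and 31.5% and 30.9% for members of 20 or more fragments. They were 17.9% and 17.1% with a window of 500 bp, 37.96% and 35.9% with 5 kb, 28.5% and 27.7% with all gene types, and 20.2% and 18.8% with the summit in place of the whole region, an alternative chosen after seeing the data. The numbers of one-library regions fell to 1767 and 2307 with −log10 q of 5 or more and to 219 and 291 with 20 or more fragments, where 122 genes had only such a region. The −log10 q cuts were applied to the peaks of both libraries before merging. A region called in both whose weaker peak fell below the cut thus counts there as one-library. The numbers and boundary shares under these cuts include such regions. Among the main members the upper quartile of −log10 q was only 4.705 in PPP2CA 1 and 4.946 in PPP2CA 2. The share within 1 kb of a region called in both, 1.75%, was 1.00% with peaks within 500 bp merged, 1.28% with −log10 q of 5 or more and 11.4% with 20 or more fragments. These settings take fewer peaks or other windows by construction. Leaving out IgG 1 or IgG 2 gave 4115 to 4116 and 5015 to 5018 regions. Leaving out a PPP2CA library was not run, since the rule needs both. No paired analysis was possible because no result comes from a fit. Most one-library summits held under 10 fragments, which limits the precision of their values, and a place without a call has no value.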

Other observations

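One-library regions were rare over genes of small RNAs. A tRNA gene lay under 2 of the 4112 PPP2CA 1 regions (0.0486%, 95% exact interval 0.00589 to 0.176) and 5 of the 5012 PPP2CA 2 regions (0.0998%, 0.0324 to 0.233), against 0.595% (0.467 to 0.746) of the regions called in both. A miRNA gene lay under 3 regions of each library (0.0730% and 0.0599%), against 0.523% (0.404 to 0.666). Among the miRNA genes were Mir301b (17 fragments, fold 6.03) and Mir152 (6 fragments, fold 3.89), both in PPP2CA 2. Terc, the RNA template of telomerase, was under a PPP2CA 1 region on chromosome 3 at 96414523 to 96414913 with 14 fragments and a fold of 5.32. Pseudogenes were under 0.511% and 0.379%, against 0.434%. The genes named here were picked with their values known.

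The one-library share of all regions without an IgG peak was 42.3% over the genome. By chromosome it ran from 38.4% (35.0 to 42.0) on chromosome 19 to 47.9% (44.9 to 50.8) on chromosome 6 and 47.9% (44.6 to 51.3) on chromosome 13 among the autosomes, and was 32.5% (28.0 to 37.2) on the X chromosome. The X chromosome held 57 and 80 one-library regions, 0.334 and 0.468 per Mb, against 3.14 and 3.501 per Mb on chromosome 11. Regions called in both went the same way, with 1.67 per Mb on X and 9.24 on chromosome 11. The Y chromosome held 1 and 2 one-library regions.

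At 48 of the 64 genes with a region of each library at separate places, those places were no more than 1 kb apart, and the median gap was 315 bp. The best by the worse of the 2 ranks was Pfdn5, a prefoldin chaperone gene, with 11 fragments at its low-coordinate end in PPP2CA 1 and 16 at its high-coordinate end in PPP2CA 2, 5128 bp apart. At the cyclin gene Ccnl1 the peaks were 110 bp apart, with 32 fragments in PPP2CA 1 and 25 in PPP2CA 2.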
